A study of Homo sapiens with 6 samples.

Results

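The receptors examined here are 9 genes with roles in neuroblastoma, of 58735 genes listed in each library. They were chosen by name as *ALK*, *NTRK2*, *NTRK3*, *NGFR*, *RET*, *PDGFRA*, *PDGFRB*, *IGF1R* and *EGFR*, and all 9 were found in the files. Of these, 8 encode receptor tyrosine kinases and *NGFR* encodes p75, the low-affinity neurotrophin receptor, which has no kinase domain. RNA-seq was performed on SK-N-AS, an established human neuroblastoma cell line, in which Prp19 was knocked down by a small interfering RNA (siPrp19), with a negative control (NC) beside it. Prp19, encoded by *PRPF19*, is a pre-mRNA splicing factor. Both groups were the same line grown in the same medium with serum, and no further allele or agent is given. RNA was taken 72 h after transfection per the labels, whereas the study's methods section states less. There were 3 libraries per group, which the methods call biological replicates. The p-values measure the spread between these libraries of 1 line and 1 siRNA.

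Receptor tyrosine kinases span the cell membrane, bind a secreted ligand outside the cell, pair up and phosphorylate each other's tails, which recruits adaptor proteins of the RAS-MAPK and PI3K pathways. In neuroblastoma, a tumour of the sympathetic lineage, *ALK* is the kinase best known for activating mutations, the TRK receptors and p75 read neurotrophins, and RET reads ligands of the GDNF family through a GFRA co-receptor. PDGFRA, PDGFRB, IGF1R and EGFR are growth factor receptors that mesenchymal and neural crest-derived cells also carry.

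Each library is called here by the name of its value column (NCa, NCb, NCc, siPrp19a, siPrp19b and siPrp19c). For 4 of the 6 files, GEO records the file under another sample than the one its column names. For 2 of these, NCb and siPrp19b, the recorded sample belongs to the opposite group. Libraries were grouped by column name, and the tested receptors, *NGFR* and every other gene called are also given for the 4 libraries whose column name and recorded sample state the same group (NCa, NCc, siPrp19a and siPrp19c). The knockdown itself was checked in each library. *PRPF19* (ENSG00000110107) was at 83.0, 83.1 and 93.0 FPKM (fragments per exon length in kilobases and per library size, a level that can be compared between genes) in NCa, NCb and NCc. It was at 19.6, 19.1 and 18.5 FPKM in siPrp19a, siPrp19b and siPrp19c. The groups by column name did not overlap, and *PRPF19* fell by 77.9% (log2 fold change of -2.12 ± 0.07 (SE), adjusted p = 0.000215). With the files grouped as recorded, the log2 fold change was -0.74. In the 4 libraries it was -2.15 (adjusted p = 0.0266). Between 14887132 and 19977811 reads were recovered per library. The mitochondrial share of reads was 8.29% in siPrp19a and 5.15% to 5.49% in the others. In chi-square tests of recovered reads between pairs of libraries, the statistic per degree of freedom was 1.72 for NCa with NCb. It was 2.59 for siPrp19b with siPrp19c and between 18.0 and 46.7 for the other 13 pairs, so no pair agreed within sampling noise. NCa with NCb, and siPrp19b with siPrp19c, were far closer to each other than to the third library of their group. The SDs and p-values given here count all 3 libraries of a group as independent, which these values do not establish. Of 10 adrenergic neuroblastoma markers, 9 had a mean of at least 1 FPKM and *TH* was below it. Their summed level was 337 to 357 FPKM in NC and 265 to 278 FPKM in siPrp19. All 10 mesenchymal markers were above 1 FPKM on average and none was called, against 7.94% of all tested genes in either direction. Their sums were 1202 to 1232 FPKM in NC and 1013 to 1089 FPKM in siPrp19. Of 11 markers of blood, epithelial, endothelial and other cells, 10 were under 1 FPKM in all 6 libraries, 4 of them at 0 in all 6. The exception was *PTPRC*, the leukocyte phosphatase CD45, which fell from 28.5 ± 3.11 to 18.1 ± 2.04 FPKM (SD, n = 3, adjusted p = 0.0202, and 0.272 in the 4 libraries). The part of these markers and of the mitochondrial share in the receptor results was not tested. In these bulk libraries, fewer cells of a kind and less RNA per cell cannot be told apart.

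Knockdown of Prp19 came with lower RNA of 3 of the receptors. *RET*, *PDGFRA* and *PDGFRB* changed by -25.6%, -31.6% and -27.9%, while *EGFR* and *IGF1R* did not pass the test. A gene was tested where its mean was at least 1 FPKM over the 6 libraries, and was called where the limma test on log2(FPKM + 1) gave an adjusted p below 0.05. Of the 9 receptors, 5 could be tested and 3 of them were called lower, against 5.37% of the 13718 tested genes. None was called higher, against 2.57% of the tested genes. The receptors were chosen with earlier results of these data known, so these shares are a description and not a test of the set. None of the 3 passed the second criterion of a change above 1.5-fold, which 2.84% of the tested genes did in either direction. The values of the 3 receptors did not overlap between the groups and were lower in every siPrp19 library, as for 18.1% of the tested genes, and no receptor was higher in every siPrp19 library, as were 13.2% of the tested genes. The median log2 fold change of the 5 tested receptors was -0.40, and that of all tested genes was -0.02. In the 4 libraries, none of the 5 was called, where the same test called 0.0146% of the tested genes. At an unadjusted p below 0.05 by limma, the same 3 receptors were lower in the 4 libraries, against 7.86% of the tested genes. With limma voom on the recovered reads of all 6 libraries, 3 of 6 tested receptors were called lower, against 3.99% of the genes tested that way.

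**Figure D1:**
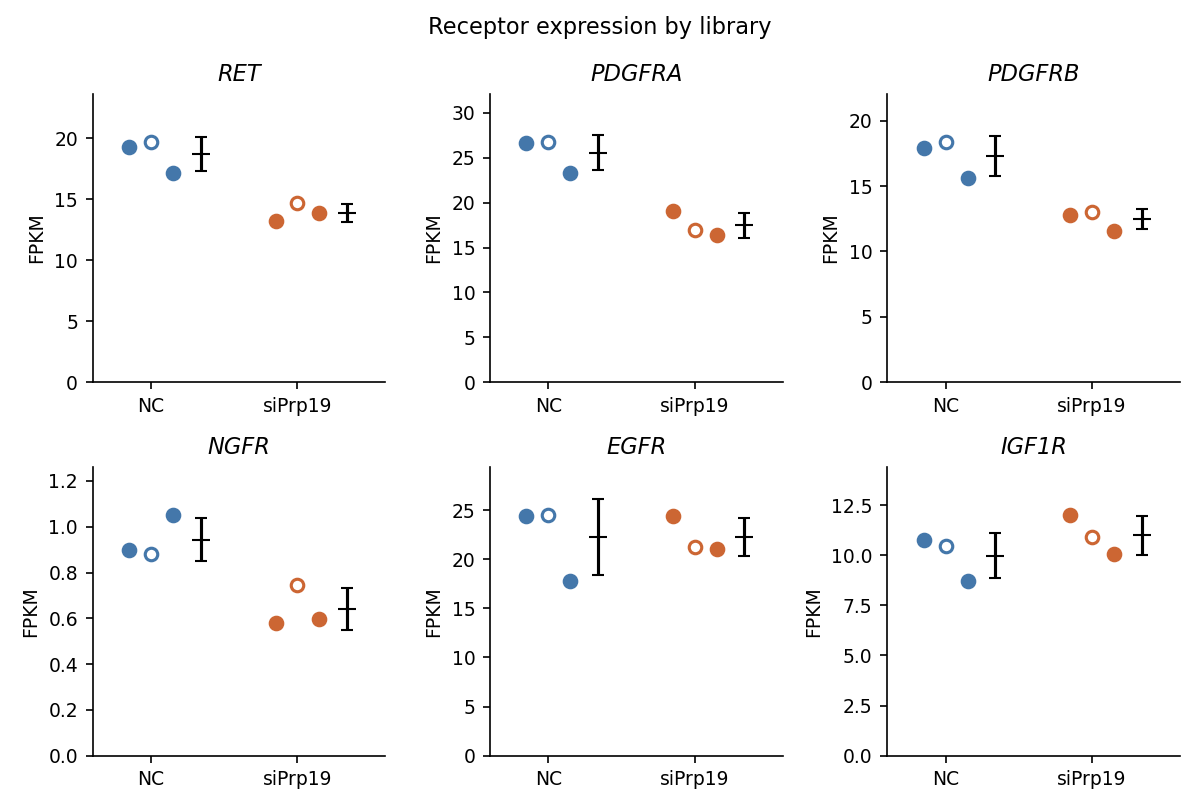
FPKM of the 6 receptors with more than a few reads, with NC and siPrp19 libraries on the horizontal axis in the order a, b, c. Each circle is 1 library, open circles are NCb and siPrp19b (recorded under the opposite group), and the bar beside each group is the mean ± SD (n = 3). *RET*, *PDGFRA*, *PDGFRB* and *NGFR* are lower in every siPrp19 library, while *EGFR* and *IGF1R* overlap.

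To show the start regions of the receptors that fell beside those that did not pass the test, the bases before an annotated RefSeq start are printed (GRCh38.p14, 5′ to 3′ on the gene's strand, capitals marking motif matches on either strand). They were read for 8 of the 9 receptors, with 15 start sites in all, and *NGFR* had no entry. The motifs searched were the GC box GGGCGG, the CCAAT box CCAAT and the E-box CAGCTG. Of 35116 windows of 250 bases before a start, 42.6% held the GC box, 32.0% the CCAAT box, 14.0% the E-box and 4.19% both of the latter. Bases inside an exon of the same gene in GENCODE 29 are left out of the lines, and where a gene had 2 starts, the first one whose window lay mostly outside exons is shown.
RET, start 1 of 2, chr10:43076819-43077026, plus strand: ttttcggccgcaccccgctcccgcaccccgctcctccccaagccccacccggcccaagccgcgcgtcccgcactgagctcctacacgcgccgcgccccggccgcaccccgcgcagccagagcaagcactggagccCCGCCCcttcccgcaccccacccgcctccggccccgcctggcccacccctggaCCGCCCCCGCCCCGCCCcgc
PDGFRA, start 2 of 2, chr4:54233710-54233959, plus strand: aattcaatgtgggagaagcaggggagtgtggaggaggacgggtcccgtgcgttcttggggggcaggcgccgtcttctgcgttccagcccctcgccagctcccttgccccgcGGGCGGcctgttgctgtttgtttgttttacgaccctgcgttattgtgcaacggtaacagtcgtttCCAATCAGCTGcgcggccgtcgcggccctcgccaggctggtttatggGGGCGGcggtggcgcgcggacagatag
PDGFRB, chr5:150155873-150156095, minus strand: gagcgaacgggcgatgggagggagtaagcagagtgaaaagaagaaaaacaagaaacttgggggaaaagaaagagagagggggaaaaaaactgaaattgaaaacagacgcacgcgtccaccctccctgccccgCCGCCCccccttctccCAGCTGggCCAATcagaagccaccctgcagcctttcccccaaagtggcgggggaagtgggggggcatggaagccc
EGFR, start 1 of 2, chr7:55018767-55019016, plus strand: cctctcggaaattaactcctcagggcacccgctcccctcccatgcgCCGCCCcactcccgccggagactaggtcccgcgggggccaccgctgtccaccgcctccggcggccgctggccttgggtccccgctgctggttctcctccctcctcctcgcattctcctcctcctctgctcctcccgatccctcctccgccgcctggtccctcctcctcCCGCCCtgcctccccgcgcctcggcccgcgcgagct
IGF1R, chr15:98648289-98648538, plus strand: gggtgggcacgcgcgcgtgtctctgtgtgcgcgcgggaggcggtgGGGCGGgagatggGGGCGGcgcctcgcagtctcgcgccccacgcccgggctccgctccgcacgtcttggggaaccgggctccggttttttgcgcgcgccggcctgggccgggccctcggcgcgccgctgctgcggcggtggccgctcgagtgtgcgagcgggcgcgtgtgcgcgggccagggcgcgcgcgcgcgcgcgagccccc

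The line of *RET* held 4 GC boxes and neither of the other motifs. Those of *PDGFRA* and *PDGFRB*, the 2 PDGF receptors, each held a CCAAT box next to an E-box, along with 2 and 1 GC boxes. The lines of *EGFR* and *IGF1R* held 2 GC boxes each and neither of the other motifs. The window before start 1 of *ALK*, of which almost no reads were found, also held a CCAAT box and an E-box, with 4 GC boxes. The second start of *RET* held 1 GC box and 1 E-box, and the first start of *PDGFRA* and the second start of *EGFR* had no match in their 250 bases.  These matches describe the letters of the windows, and no binding was measured.

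*PDGFRA* encodes the alpha receptor for platelet-derived growth factors, and it was the most abundant of the 9 in NC. The gene (ENSG00000134853) spans chr4:54229097-54298247 on the plus strand in GENCODE 29 (GRCh38). It was at 26.6, 26.8 and 23.3 FPKM in NCa, NCb and NCc, and at 19.1, 17.0 and 16.4 FPKM in siPrp19a, siPrp19b and siPrp19c. All 3 siPrp19 libraries were below the lowest NC library, NCc. The mean was 25.6 ± 1.96 FPKM in NC and 17.5 ± 1.40 FPKM in siPrp19 (SD, n = 3). On the log2 scale the change was -0.52 ± 0.09 (SE, adjusted p = 0.0171), with a 95% interval from -0.73 to -0.32. In the 4 libraries, the change was -29.0% (log2 fold change of -0.47, adjusted p = 0.276). Between 2730 and 4100 reads stood behind each value. The adjusted p was 0.0803 without NCa, 0.0751 without NCb, 0.0834 without siPrp19b and 0.0823 without siPrp19c. The call was thus lost when each of these was left out in turn, at log2 fold changes of -0.495, -0.490, -0.506 and -0.481. Calls over all genes also fell, from 1089 to 264, 335, 270 and 253. The adjusted p of *PDGFRA* was 0.0143 without NCc and 0.0204 without siPrp19a. The libraries whose removal lost the call are those of the close pairs, NCa with NCb and siPrp19b with siPrp19c. The annotated readthrough gene that shares its span had 0 reads in all 6 libraries.

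*PDGFRB*, the beta receptor of the same growth factors and a marker of mesenchymal cells, changed beside it. The gene (ENSG00000113721) spans chr5:150113837-150155872 on the minus strand. Its level was 17.9, 18.4 and 15.6 FPKM in NCa, NCb and NCc, and 12.8, 13.0 and 11.6 FPKM in siPrp19a, siPrp19b and siPrp19c. As for *PDGFRA*, the lowest NC library was NCc and the lowest siPrp19 library was siPrp19c, and the groups did not overlap. The mean was 17.3 ± 1.51 FPKM in NC and 12.5 ± 0.785 FPKM in siPrp19 (SD, n = 3). This made a log2 fold change of -0.44 ± 0.09 (SE, adjusted p = 0.0273), on 1444 to 2027 reads. It was -0.43 in the 4 libraries (adjusted p = 0.294). The adjusted p was 0.116 without NCa, 0.110 without NCb, 0.0892 without siPrp19b and 0.114 without siPrp19c, and 0.0154 without NCc and 0.0493 without siPrp19a. The ratio of *PDGFRA* to *PDGFRB* was 1.48 ± 0.0201 in NC and 1.40 ± 0.0934 in siPrp19, and the groups overlapped (exact two-sided permutation p = 0.3), with means of 1.49 and 1.45 in the 4 libraries.

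*RET* encodes the signalling receptor for glial cell line-derived neurotrophic factors, which act on the sympathetic and enteric nervous system. The gene (ENSG00000165731) spans chr10:43077027-43130351 on the plus strand. It was at 19.3, 19.7 and 17.1 FPKM in NCa, NCb and NCc, and at 13.2, 14.7 and 13.9 FPKM in siPrp19a, siPrp19b and siPrp19c. The highest siPrp19 library, siPrp19b, was below the lowest NC library, NCc. The mean was 18.7 ± 1.38 FPKM in NC and 13.9 ± 0.738 FPKM in siPrp19 (SD, n = 3), a log2 fold change of -0.40 ± 0.08 (SE, adjusted p = 0.0276). Between 1439 and 2107 reads stood behind each value. The 4 libraries gave -0.40 (adjusted p = 0.299). The call held without NCc (adjusted p = 0.0163), and was lost without NCa, NCb, siPrp19a, siPrp19b or siPrp19c (0.120, 0.115, 0.0569, 0.0840 and 0.111). All 3 calls were lost when each library was rescaled to the same FPKM sum (adjusted p of 0.144 for *RET*, 0.0515 for *PDGFRA* and 0.106 for *PDGFRB*), with the direction kept.

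*EGFR*, the receptor for epidermal growth factor and related ligands, did not pass the test. The gene (ENSG00000146648) spans chr7:55019021-55211628 on the plus strand. It was at 24.4, 24.5 and 17.8 FPKM in NCa, NCb and NCc, and at 24.5, 21.2 and 21.0 FPKM in siPrp19a, siPrp19b and siPrp19c. The NC values spanned the whole range of the siPrp19 values, with NCc the lowest of all 6. Both means were 22.2 FPKM, with SDs of 3.86 in NC and 1.93 in siPrp19. Its log2 fold change of 0.01 ± 0.13 (SE, adjusted p = 0.973) had a 95% interval from 0.808-fold to 1.26-fold. The 4 libraries gave 0.11. Opposite to *EGFR*, *EGFR-AS1* had at most 21 reads in a library, against 3829 to 5521 for *EGFR*. Strandedness was not stated, so reads of the pair cannot be told apart where they overlap.

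*IGF1R*, the receptor for insulin-like growth factors, likewise did not pass the test. The gene (ENSG00000140443) spans chr15:98648539-98964530 on the plus strand. Its level was 10.8, 10.4 and 8.70 FPKM in NCa, NCb and NCc, and 12.0, 10.9 and 10.1 FPKM in siPrp19a, siPrp19b and siPrp19c. The groups overlapped, and NCc was again the lowest of all 6. The mean was 9.97 ± 1.12 FPKM in NC and 11.0 ± 0.978 FPKM in siPrp19 (SD, n = 3). The change of 0.13 ± 0.10 (SE, adjusted p = 0.490) on the log2 scale had a 95% interval from 0.928-fold to 1.29-fold. It was 0.17 in the 4 libraries (adjusted p = 0.696).

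**Figure D2:**
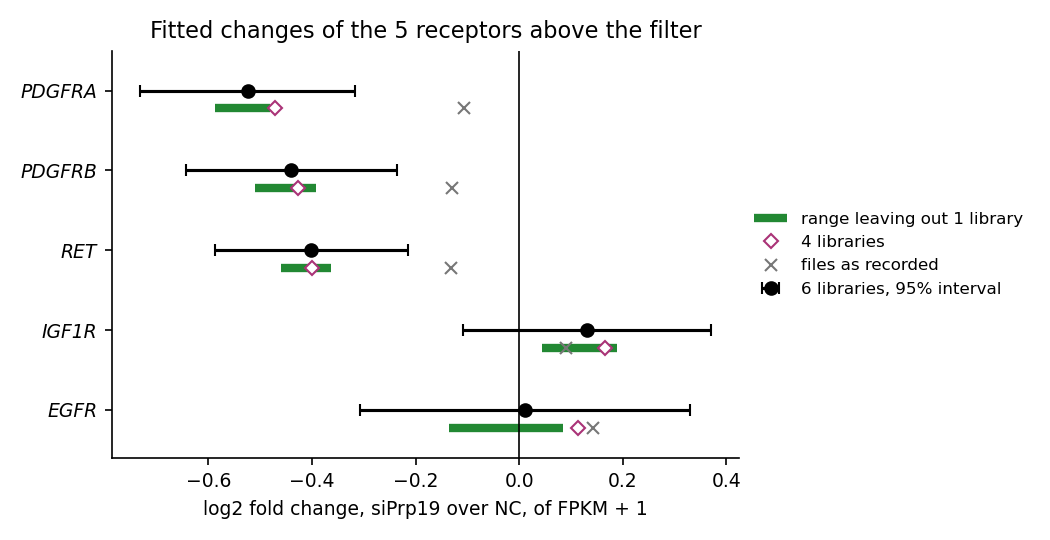
Log2 fold change of FPKM + 1, siPrp19 over NC, for the 5 tested receptors. Black points with bars are the estimates with 95% intervals from all 6 libraries, green bars the range when 1 library is left out, diamonds the 4 libraries whose names and records agree on the group, and crosses the files grouped as recorded. The intervals of *PDGFRA*, *PDGFRB* and *RET* lie below 0, and those of *IGF1R* and *EGFR* span 0.

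The other 4 receptors were below the filter. *NGFR* (ENSG00000064300), at chr17:49495293-49515017 on the plus strand, was near the filter, with a mean of 0.792 FPKM over the 6 libraries. It was at 0.898, 0.882 and 1.05 FPKM in NCa, NCb and NCc, and at 0.580, 0.745 and 0.597 FPKM in siPrp19a, siPrp19b and siPrp19c. All 3 siPrp19 libraries were below all 3 NC libraries, as for 18.1% of the tested genes. These values rest on 59, 54 and 75 reads in NC and 38, 51 and 52 reads in siPrp19. The mean was 0.944 ± 0.0930 FPKM in NC and 0.640 ± 0.0907 FPKM in siPrp19, a difference of -32.1% (exact two-sided permutation p = 0.1, the smallest that 3 libraries against 3 allow). The difference was -39.6% in the 4 libraries. With limma, the adjusted p was 0.243 when the filter was lowered to a mean of 0.1 FPKM and 0.141 with voom on the recovered reads, so *NGFR* was not called in either.

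*ALK*, *NTRK2* and *NTRK3* were at or near 0. *ALK* (ENSG00000171094), at chr2:29192774-29921566 on the minus strand, had between 0 and 7 reads per library and at most 0.0453 FPKM. *NTRK3*, the receptor for neurotrophin NT-3 (ENSG00000140538), at chr15:87859751-88256768 on the minus strand, had between 1 and 7 reads and at most 0.0165 FPKM. *NTRK2*, the receptor for BDNF (ENSG00000148053), at chr9:84668551-85027070 on the plus strand, had 0 reads in all 6 libraries. A count of 0 allows up to 3 reads, which for *NTRK2* is 0.00702 to 0.00999 FPKM depending on the library. These limits cover counting error only. A change in these 3 genes was not detectable at this depth. They are also the longest of the 9, spanning 729 kb for *ALK*, 359 kb for *NTRK2* and 397 kb for *NTRK3*. The receptors that were called span 42.0 kb (*PDGFRB*), 53.3 kb (*RET*) and 69.2 kb (*PDGFRA*), and those tested and not called span 193 kb (*EGFR*) and 316 kb (*IGF1R*). These spans were compared after the calls were seen, and a relation of span to change was not tested over the other genes.

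The order of levels, in FPKM, changed at the top. In NC it ran *PDGFRA*, *EGFR*, *RET*, *PDGFRB*, *IGF1R* and *NGFR*. The ranges of neighbours overlapped from *PDGFRA* to *PDGFRB*, while *IGF1R* and *NGFR* each lay apart from the next above. In siPrp19 it ran *EGFR*, *PDGFRA*, *RET*, *PDGFRB*, *IGF1R* and *NGFR*. There, only *PDGFRB* and *IGF1R* overlapped among these 6. The ratio of *PDGFRA* to *EGFR* was 1.09, 1.09 and 1.31 in NCa, NCb and NCc, and 0.780, 0.800 and 0.780 in siPrp19a, siPrp19b and siPrp19c. *PDGFRA* was therefore above *EGFR* in every NC library and below it in every siPrp19 library. This ratio was chosen after the values were seen and is given with no test.

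**Figure D3:**
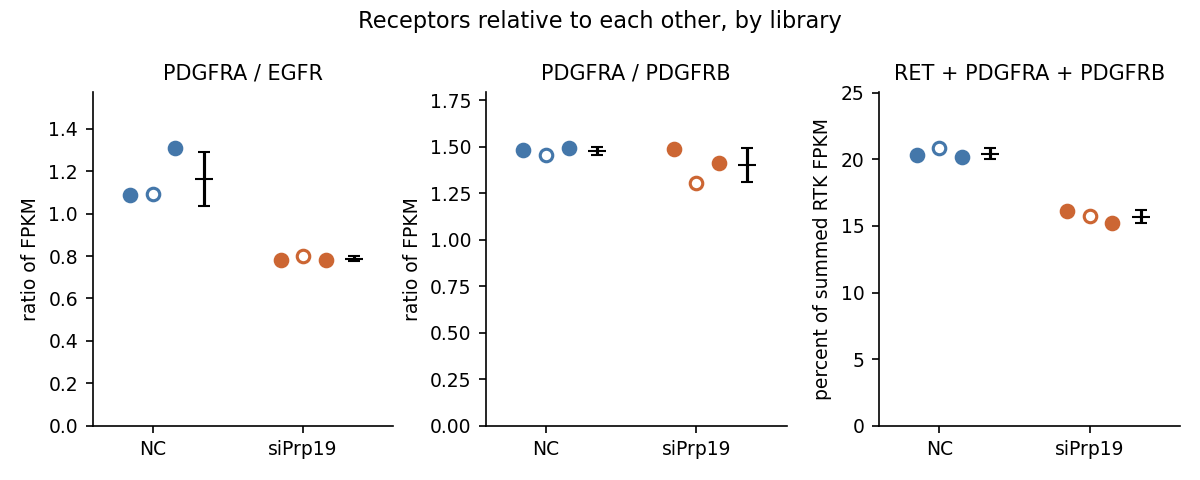
Ratios of FPKM between receptors, and the FPKM of *RET*, *PDGFRA* and *PDGFRB* together as a percent of the summed FPKM of 58 receptor tyrosine kinases (RTK). Circles are single libraries (open for NCb and siPrp19b), and the bars are mean ± SD (n = 3). *PDGFRA* over *EGFR* and the 3-receptor share are lower in every siPrp19 library, while *PDGFRA* over *PDGFRB* overlaps.

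To place the receptors among their relatives, 58 receptor tyrosine kinases were listed, 8 of them members. Of the 58, 25 had a mean of at least 1 FPKM and 16 were under 0.1 FPKM in every library. Among the 25 tested, 4 were called lower and 0 higher, against 5.37% and 2.57% of all tested genes. The fourth beside *RET*, *PDGFRA* and *PDGFRB* was *PTK7*, a catalytically inactive kinase of Wnt signalling, at 39.5, 37.8 and 37.0 FPKM in NCa, NCb and NCc and 27.2, 30.4 and 29.6 FPKM in siPrp19a, siPrp19b and siPrp19c (adjusted p = 0.0239, and 0.294 in the 4 libraries). *EPHA2*, an ephrin receptor, ranked highest in all 6 libraries and did not pass the test (40.0 ± 1.67 and 42.1 ± 1.81 FPKM, SD, n = 3, adjusted p = 0.594). *PDGFRA* ranked 3 among the 58 in each NC library and 5 or 6 in the siPrp19 libraries. *RET* ranked 6 or 7 in NC and 8 in siPrp19, and *EGFR* ranked 5 in NC and 4 in siPrp19. The 3 called members together made up 20.4% ± 0.390 of the summed FPKM of the 58 in NC and 15.7% ± 0.475 in siPrp19 (SD, n = 3), with means of 20.2% and 15.7% in the 4 libraries. These 3 were picked because they were called lower, so the direction of this share was fixed by the choice and it was not tested. The summed FPKM itself was 278 to 314 in NC and 276 to 284 in siPrp19, so the groups overlapped. Of the 44 others outside the members and their partners, 18 were tested and 1 was called lower, where 5.37% of all tested genes were. Their median log2 fold change was 0.05. *FGFR1*, a fibroblast growth factor receptor, just missed the threshold, at 16.5 ± 0.655 FPKM in NC and 13.6 ± 0.257 FPKM in siPrp19 (SD, n = 3, adjusted p = 0.0507, and 0.415 in the 4 libraries).

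**Figure D4:**
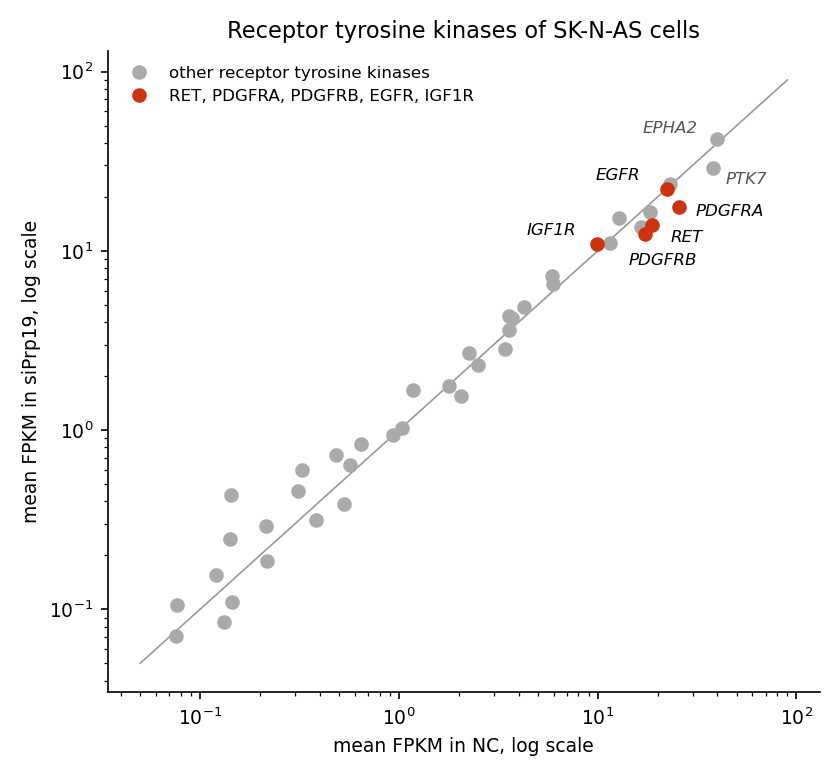
Mean FPKM of receptor tyrosine kinases in siPrp19 against NC, both on log scales (n = 3 each), for those above 0.05 FPKM in both groups. The line marks equal levels. *RET*, *PDGFRA*, *PDGFRB* and *PTK7* lie below the line, and *EGFR*, *IGF1R* and *EPHA2* lie on or just above it.

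Ligands and partners were then examined for each receptor, from lists taken whole. Of 25 ligands, 7 were tested, with 1 called higher and 0 lower (median log2 fold change of -0.07), against 2.57% and 5.37% of all tested genes. With 7 genes, 1 call cannot be told apart from these shares. The one called was *HBEGF*, which encodes heparin-binding EGF-like growth factor, an EGFR ligand. It was at 5.99, 5.39 and 6.45 FPKM in NCa, NCb and NCc and at 7.43, 7.99 and 8.60 FPKM in siPrp19a, siPrp19b and siPrp19c. It was thus higher in every siPrp19 library than in any NC library, as were 13.2% of the tested genes. Its log2 fold change was 0.38 ± 0.09 (SE, adjusted p = 0.0448), and 0.32 in the 4 libraries (adjusted p = 0.406). The call was lost without NCa (adjusted p = 0.139), NCb (0.148), siPrp19b (0.153) or siPrp19c (0.163). The other EGFR ligands *EGF* and *TGFA* were below 0.5 FPKM in all 6 libraries.

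For RET, the ligand-binding co-receptor present was *GFRA2*, which prefers neurturin, while *GFRA1* was at 0.00654 FPKM or less. *GFRA2* was at 11.3, 11.5 and 11.2 FPKM in NCa, NCb and NCc and at 9.58, 8.90 and 8.26 FPKM in siPrp19a, siPrp19b and siPrp19c. It was lower in every siPrp19 library, as were 18.1% of the tested genes, and fell by 21.4% (log2 fold change of -0.32 ± 0.07 (SE), adjusted p = 0.0420). In the 4 libraries it was -0.31 (adjusted p = 0.408). The call held without siPrp19a (adjusted p = 0.0304) and was lost without NCa (0.144), NCb (0.147), NCc (0.0523), siPrp19b (0.151) or siPrp19c (0.157). The ratio of *RET* to *GFRA2* was 1.65 ± 0.105 in NC and 1.57 ± 0.168 in siPrp19, and the groups overlapped (exact two-sided permutation p = 0.5), with means of 1.61 and 1.53 in the 4 libraries. Among RET ligands, *PSPN* was at 3.32 ± 0.631 FPKM in NC and 3.85 ± 0.224 FPKM in siPrp19 (SD, n = 3, adjusted p = 0.413), and the others were below the filter and not tested by limma. *GDNF*, the founding ligand of the family, was at 0.606, 0.571 and 0.667 FPKM in NCa, NCb and NCc and at 0.370, 0.340 and 0.290 FPKM in siPrp19a, siPrp19b and siPrp19c, lower in every siPrp19 library (-45.7%, and -48.1% in the 4 libraries), on 24 to 49 reads. *ARTN* was at 0.499, 0.842 and 0.875 FPKM in NC and at 0.977, 1.19 and 1.04 FPKM in siPrp19, in the same order of libraries, higher in each. Of the tested genes, 18.1% were lower and 13.2% higher in every siPrp19 library. *NRTN* overlapped between the groups, between 0.171 and 0.685 FPKM. *GFRA2* was the 1 gene called among 6 tested of 20 co-receptors and partners (median log2 fold change of -0.13), where 5.37% of all tested genes were called lower.

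For the PDGF receptors, *PDGFC* was at 2.56, 2.57 and 2.43 FPKM in NCa, NCb and NCc and at 1.74, 2.18 and 2.03 FPKM in siPrp19a, siPrp19b and siPrp19c. *PDGFD* was at 2.46, 2.24 and 2.22 FPKM in NC and at 1.84, 1.82 and 1.80 FPKM in siPrp19, in the same order of libraries. Both ligands were lower in every siPrp19 library, as were 18.1% of the tested genes. Neither passed the test (adjusted p of 0.163 and 0.149, and 0.5005 and 0.556 in the 4 libraries). *PDGFA* and *PDGFB* were at 1.10 FPKM or less. The ALK ligand *ALKAL2* was at 0.196 FPKM or less, low like its receptor. *PTN* and *MDK*, the heparin-binding growth factors pleiotrophin and midkine, were the most abundant ligands. *PTN* was at 17.5 ± 3.10 FPKM in NC and 22.8 ± 2.19 FPKM in siPrp19 (SD, n = 3, adjusted p = 0.133), and *MDK* at 25.2 ± 6.15 and 23.7 ± 3.42 FPKM (adjusted p = 0.854). The neurotrophin *BDNF* was at 0.335 FPKM or less, and *SORT1*, which encodes the p75 partner sortilin, was at 2.49 ± 0.300 FPKM in NC and 2.60 ± 0.302 FPKM in siPrp19 (SD, n = 3, adjusted p = 0.835). *BEX3*, a p75-interacting protein, was at 167 ± 25.1 and 142 ± 36.1 FPKM (adjusted p = 0.510).

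For IGF1R, *IGF1* was at 0.0117 FPKM or less and *IGF2* was at 1.57 ± 0.569 FPKM in NC and 1.34 ± 0.318 FPKM in siPrp19 (SD, n = 3, adjusted p = 0.771). *IGFBP4*, which encodes a secreted protein that binds insulin-like growth factors, was at 126, 132 and 156 FPKM in NCa, NCb and NCc and at 71.0, 82.7 and 80.0 FPKM in siPrp19a, siPrp19b and siPrp19c. It fell by 43.5%, with a log2 fold change of -0.81 ± 0.11 (SE, adjusted p = 0.00928), and was the one gene called in the ligand, partner, adaptor and feedback lists whose fitted change was above 1.5-fold. In the 4 libraries its log2 fold change was -0.89 (adjusted p = 0.147). *IGF2R*, the clearance receptor for IGF2, was at 16.0 ± 2.86 and 17.2 ± 1.16 FPKM (adjusted p = 0.679).

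**Figure D5:**
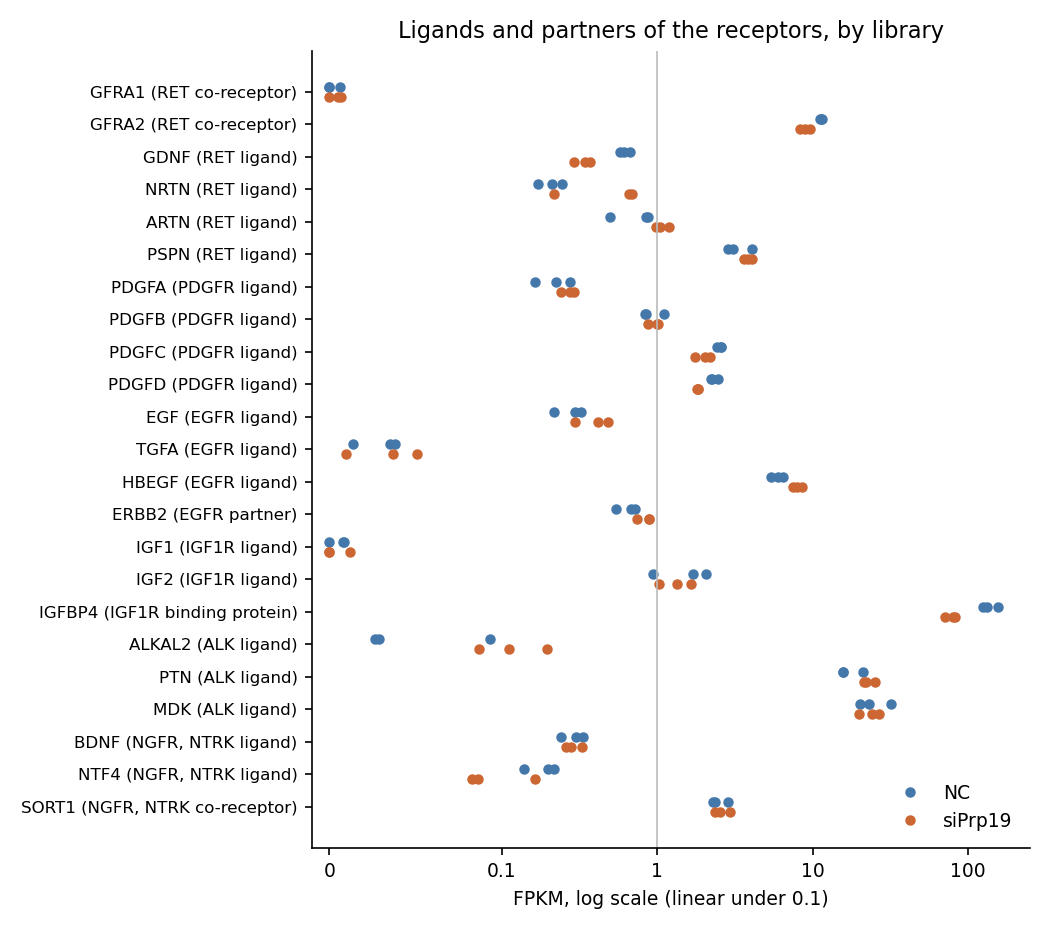
FPKM in each library of ligands, co-receptors and other partners, with the receptor in brackets, on an axis that is logarithmic above 0.1. Each point is 1 library and the vertical line marks 1 FPKM. *HBEGF* is higher in every siPrp19 library, and *GFRA2*, *IGFBP4*, *PDGFC* and *PDGFD* are lower in each.

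Downstream of the receptors, most adaptors did not pass the test. Of 20 adaptors, 16 were tested, with 1 called lower and 0 higher (median log2 fold change of -0.02). The one called was *DOK4*, a docking protein that RET phosphorylates, which fell from 58.8 ± 2.41 to 45.9 ± 2.52 FPKM (SD, n = 3, adjusted p = 0.0356, 0.348 in the 4 libraries). The most abundant adaptors were *SHC1* at 132 ± 5.17 and 106 ± 9.55 FPKM (adjusted p = 0.0861), *GRB2* at 66.0 ± 0.674 and 67.9 ± 1.82 FPKM (0.759) and *PTPN11* at 61.0 ± 8.17 and 57.2 ± 1.42 FPKM (0.700). Of 22 feedback regulators, ubiquitin ligases, phosphatases and binding proteins, all 22 were tested, with 2 called lower, *IGFBP4* and *PTPN1*, and 0 higher (median log2 fold change of 0.01). Of all tested genes, 5.37% were called lower and 2.57% higher, so calls this few in the adaptor and feedback lists cannot be told apart from the background. *PTPN1*, a phosphatase of insulin and growth factor receptors, fell from 19.9 ± 1.36 to 15.7 ± 0.628 FPKM (SD, n = 3, adjusted p = 0.0461, 0.472 in the 4 libraries). The *DOK4* call was lost without NCa, NCb, siPrp19a, siPrp19b or siPrp19c (adjusted p of 0.123, 0.118, 0.0557, 0.115 and 0.120). The *PTPN1* call was lost without the same libraries (0.172, 0.168, 0.0569, 0.178 and 0.154), and the *PTK7* call without NCa, NCb, siPrp19b or siPrp19c (0.117, 0.0980, 0.0809 and 0.0981).

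Across the 6 libraries, the called receptors varied together. Pearson's r of log2(FPKM + 1) was 0.92 between *RET* and *PDGFRA*, 0.97 between *RET* and *PDGFRB* and 0.98 between *PDGFRA* and *PDGFRB*. It was 0.83 between *IGF1R* and *EGFR*, both lowest in NCc. *RET*, *PDGFRA* and *PDGFRB* were picked because each was called lower in siPrp19, so a high r between them followed from that choice. The points also share their libraries and their depth, and 6 libraries in 2 groups allow no more than a description. Among 7274 protein-coding genes with a mean of at least 5 FPKM, those most like each receptor by r over the 6 libraries were *CALU* and *EDNRB* for *PDGFRA* (both r = 0.999), *STK38L* and *NBN* for *PDGFRB* (1.00 and 0.999), *ADGRA2* and *GMCL1* for *RET* (0.999 and 0.996), *NUP98* and *PRPF8* for *IGF1R* (0.998 and 0.996) and *UBR4* and *PCDHGB7* for *EGFR* (0.996 each). *EDNRB*, the endothelin receptor of neural crest cells, was at 18.4, 18.8 and 17.2 FPKM in NCa, NCb and NCc and at 15.3, 14.1 and 14.0 FPKM in siPrp19a, siPrp19b and siPrp19c. *PRPF8*, a core splicing factor, was at 22.5, 21.5 and 17.0 FPKM in NC and at 27.1, 23.5 and 21.0 FPKM in siPrp19, with the NCc value lowest as for *IGF1R*.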

How the data were processed

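RNA-seq of SK-N-AS cells (3 NC and 3 siPrp19 libraries) was used, with 3 µg of RNA per library and the NEBNext Ultra kit. The submitters' processing notes name HISAT2 2.0.5, featureCounts 1.5.0-p3 and hg38. The annotation release and strandedness are not given in the sources used here. The authors deposited 1 FPKM value per gene and library. All 58735 identifiers were in GENCODE 29. FPKM times merged exon length gave whole reads for 100% of values (tolerance 0.05). The read total over that implied by the deposited FPKM was 1.01 to 1.04 in NC and 0.951 to 0.989 in siPrp19. The groups did not overlap in this ratio, so deposited values lie lower in siPrp19, relative to NC, than values scaled by read total. With voom on the recovered reads, the log2 fold changes were -0.35 for *RET*, -0.47 for *PDGFRA* and -0.39 for *PDGFRB*.

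Columns were mapped to samples by the sample description. Genes with a mean of at least 1 FPKM were tested on log2(FPKM + 1), which understates changes of low genes, with limma 3.58.1 (R 4.3.3), its trend option and p-values adjusted by Benjamini-Hochberg over the 13718 genes tested. Single values had an exact two-sided permutation test. The procedure was tested on simulated data. Named genes were the receptors, *PRPF19* and the 2 genes most like each tested receptor. In the lists of ligands, partners, adaptors, feedback regulators and other receptors, called genes and at most 3 of the most abundant were named. Genes outside this rule were named after their values were seen. The members and lists were chosen with earlier results of these data known. Alternatives were other pseudocounts, filters, scalings and models, leaving out libraries and, chosen after seeing the data, a correction for GC content and length. Some genes of the lists are not reported here.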

Additional observations from a re-analysis of the deposited data

How the results depend on the processing

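*PRPF19*, *RET*, *PDGFRA*, *PDGFRB* and *IGF1R* kept their direction under every alternative run, and *EGFR*, near 0 (-0.136 to 0.0846 leaving out 1 library), turned to -0.136 without NC replicate 3 (NCc) and -0.0569 without siPrp19 replicate 1 (siPrp19a). The 3 receptor calls became 1 with no filter on low values and with quantile normalization, and 0 with the same FPKM sum in each library, in the 4 libraries and with samples as recorded, and 0 to 3 when 1 library was left out. At an unadjusted p below 0.05 by limma, 3 of the 5 receptors and 1685 genes passed in the 4 libraries, and 0 receptors and 191 genes with samples as recorded, where *PRPF19* was at -0.743. The 6 calls among ligands, partners, adaptors, feedback regulators and other receptors (1 higher, 5 lower) became 2 with no filter or a filter at 0.1 FPKM, 3 with quantile normalization (2 higher, 1 lower) or no trend, 1 with the same sum, 0 in the 4 libraries and as recorded, 13 with the GC and length correction (3 higher, 10 lower), 9 with voom (7 higher, 2 lower), and 1 to 10 leaving out 1 library. The 1089 calls over all genes (353 higher, 736 lower) became 512 with no filter, 656 with the same sum, 2 in the 4 libraries, 0 as recorded, 1771 with the GC and length correction (766 higher, 1005 lower), and 253 to 1354 leaving out 1 library. The split was 501 higher and 586 lower with quantile normalization, and 905 higher and 661 lower with voom. The causes of these differences were not tested. Settings that leave out libraries also have fewer of them in the fit.

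After removal of group means, same-numbered libraries of the 2 groups correlated at 0.134, -0.049 and 0.204. Differently numbered ones correlated at -0.199 to 0.131. The ranges overlap, so these values do not settle whether the replicate numbers pair the libraries. With the replicate block, 3 receptors, 2 of the other listed genes and 928 genes in all were called. Depth limits *ALK*, *NTRK2*, *NTRK3* and *NGFR*.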
